A study of Sus scrofa with 16 samples.

Results

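The genes described here encode the subunits of the proteasome, measured in the liver of 16 pigs on 1-colour arrays. Members were the non-control probes whose gene name, or whose symbol in the probe description, began PSMA, PSMB, PSMC, PSMD, PSME, PSMF or PSMG. This gave 58 of 43603 probes, for 20 genes, and all 58 were well above background on all 16 arrays. They comprised 8 genes of the core (PSMA1, PSMA4, PSMA5, PSMA6, PSMB3, PSMB4, PSMB6, PSMB7), 6 of the cap (PSMC1, PSMC6, PSMD1, PSMD4, PSMD10, PSMD14), 5 of the immunoproteasome (PSMB8, PSMB9, PSMB10, PSME1, PSME2) and PSME3. No member of the PSMF or PSMG families was found by the rule. A further 24 probes named a subunit only through the gene table or in words, among them those of PSMB5, and are given apart.

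The pigs (Sus scrofa) came from the strain RFIneg, with low residual feed intake (low-RFI), and the strain RFIpl, with high residual feed intake (high-RFI), 8 of each. Residual feed intake is how far a pig's feed consumption departs from that predicted from its growth and maintenance needs. All pigs weighed 20 kg and were fed ad libitum, and each gave 1 array of total liver RNA. Selection for feed intake and any other difference between the strains cannot be told apart in this design.

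The proteasome degrades proteins that carry ubiquitin chains. Its core is a barrel of alpha and beta subunits, of which PSMB5, PSMB6 and PSMB7 carry the proteolytic sites. The cap recognises ubiquitin, removes it and unfolds the protein with a ring of ATPases. Interferon induces PSMB8, PSMB9 and PSMB10, which take the places of the constitutive catalytic subunits to form the immunoproteasome, and the PSME1 and PSME2 activator, and these favour peptides for MHC class I.

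PSMB8 and PSMB9 varied most of all members between pigs, so their probes are shown first. Each is 60 bases long and is printed as the array files list it. Of the 3 PSMB8 probes, 2 overlap, and capitals mark the 37 bases that they share, while PSMB9 is shown by 1 probe. The values given for the genes are those of A_72_P444948 for PSMB8 and A_72_P440071 for PSMB9, the brightest tested probe of each.

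PSMB8 probe A_72_P088176: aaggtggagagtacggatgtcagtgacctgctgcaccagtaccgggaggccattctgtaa
PSMB8 probe A_72_P444948: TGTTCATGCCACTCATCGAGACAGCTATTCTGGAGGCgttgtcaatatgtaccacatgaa
PSMB8 probe A_72_P564399: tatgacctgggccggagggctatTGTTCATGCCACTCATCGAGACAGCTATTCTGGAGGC
PSMB9 probe A_72_P440071: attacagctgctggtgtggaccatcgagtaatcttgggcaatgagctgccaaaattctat

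The level of a probe is its log2 signal minus that of the array's 75th percentile, so a negative level is a signal below that percentile. A difference between lines is low-RFI minus high-RFI on the log2 scale, with its standard error (SE), and r is Pearson's correlation over pigs. Each of the 4 slides held 2 pigs of each line. The arrays had between 28576 and 34977 probes well above background. Signal at the 75th percentile ranged from 320.0 to 508.5 intensity units, over a median local background of 29 to 40. High-RFI pig 6 stood apart, with the most probes above background, the lowest 75th percentile and the lowest median correlation with the other arrays (0.971, with 0.975 to 0.984 in the others). Hepatocyte markers (albumin, apolipoproteins and others) were detected, with a summed linear level of 2345 to 3674 times the 75th percentile against 1.21 to 5.61 for 6 T and NK cell markers.

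No proteasome gene passed the test between the lines in limma after adjustment over all 30097 tested probes. Of the 58 member probes 0 were called at an adjusted p under 0.05 (background 0.00997% of tested probes), and 1 reached an unadjusted p under 0.05, against 5.46% of all tested probes in either direction and 2.96% in its own, lower, direction. In 0 of 58 probes did the 2 groups not overlap (background 0.0432%). Of the 20 genes, each taken at its brightest tested member probe, 11 were higher and 9 lower in low-RFI liver. Their median difference was +0.01, beside +0.02 over 3997 named genes, of which 0% were called and 5% reached an unadjusted p under 0.05. The median SE of the 20 genes was 0.14, and their adjusted p in limma was 0.845 or more.

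**Figure D1:**
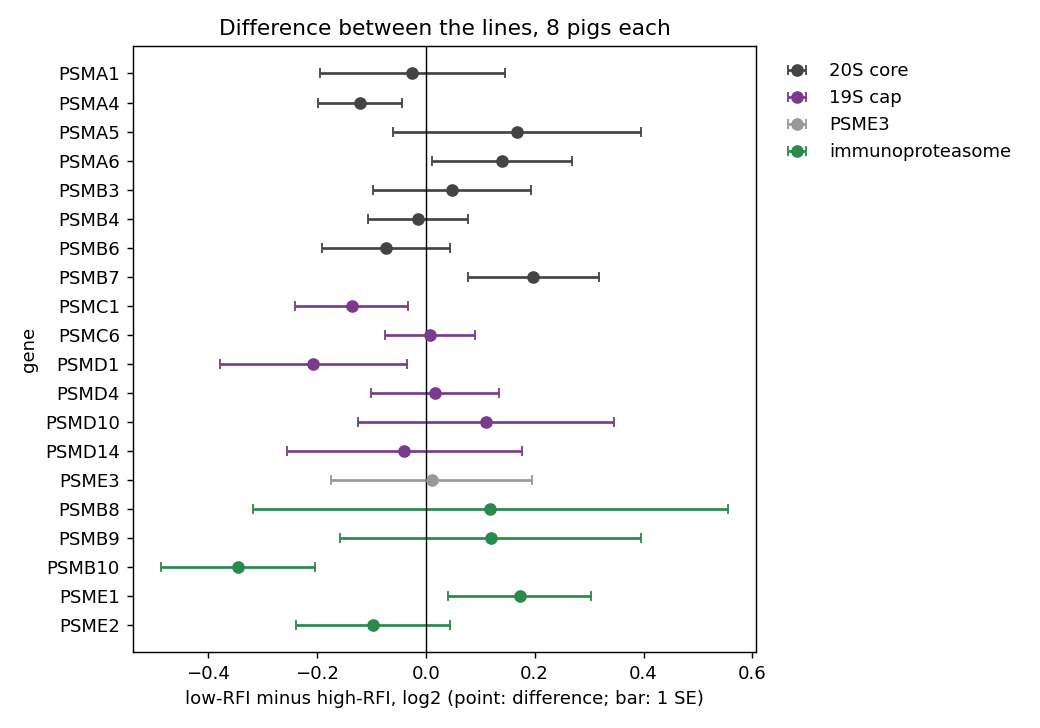
Difference between the lines for the 20 genes, low-RFI minus high-RFI on the log2 scale, with bars of 1 SE and 8 pigs per line. Points lie on both sides of 0 in the core, the cap and the immunoproteasome, and PSMB10 lies farthest from 0, at −0.34.

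In the core, 4 genes were higher and 4 lower in low-RFI pigs, with a median difference of +0.02. PSMB7, which carries the trypsin-like site, had the smallest p on the higher side. Its level ran from 4.65 to 5.08 in low-RFI pigs (median 4.82) and from 4.08 to 5.03 in high-RFI pigs (median 4.66). The groups overlapped, though all 8 low-RFI pigs lay above the mean of the high-RFI pigs and high-RFI pig 6 was lowest. The difference was +0.20 (SE 0.121, adjusted p 0.971 in limma), and the other PSMB7 probe was at +0.14. PSMA4, an alpha ring subunit, had the smallest p on the lower side, with 3.18 to 3.42 in low-RFI pigs (median 3.36) and 3.27 to 3.58 in high-RFI pigs (median 3.48). Each of the 8 low-RFI pigs was under the mean of the high-RFI pigs, with overlapping ranges and a difference of −0.12 (SE 0.0771, adjusted p 0.976).

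PSMB6, which carries the caspase-like site, lay between 3.79 and 4.25 in low-RFI pigs (median 4.09) and between 3.79 and 4.64 in high-RFI pigs (median 4.16). High-RFI pig 5 was the highest and the difference was −0.07 (SE 0.118), while the other 2 PSMB6 probes were at +0.08 and +0.07, so its sign rested on the probe. PSMA6 of the alpha ring lay between 4.13 and 4.92 in low-RFI pigs (median 4.44) and between 3.82 and 4.63 in high-RFI pigs (median 4.38), with low-RFI pig 2 highest, high-RFI pig 6 lowest and a difference of +0.14 (SE 0.128). PSMA5, of the same ring, differed by +0.17 (SE 0.228), and PSMA1 by −0.02 (SE 0.170). The PSMA1 value is that of its only member probe, which was dim, and the brighter PSMA1 probe named otherwise was at −0.07 (SE 0.116). PSMB3 and PSMB4, structural beta subunits without a proteolytic site, differed by +0.05 (SE 0.145) and −0.01 (SE 0.0916). PSMB4 was covered by 10 probes, whose differences ran from −0.01 to +0.10.

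PSMB5, which carries the chymotrypsin-like site, was named only through the gene table or in words, by 4 probes. Its brightest probe lay between 2.35 and 3.05 in low-RFI pigs (median 2.79) and between 1.91 and 2.95 in high-RFI pigs (median 2.51). In 7 of 8 low-RFI pigs it lay above the high-RFI mean, high-RFI pigs 6 and 7 were the lowest, and the ranges overlapped. The difference was +0.28 (SE 0.154, unadjusted p 0.0847, adjusted p 0.962 in limma), and over the 4 probes it ran from +0.16 to +0.33.

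In the cap, 3 genes were higher and 3 lower, with a median difference of −0.02. PSMC1, an ATPase of the ring that unfolds substrates, had the smallest p on the lower side, with 4.88 to 5.36 in low-RFI pigs (median 5.20) and 5.0 to 5.50 in high-RFI pigs (median 5.32). The groups overlapped, and low-RFI pig 7 was lowest. The difference was −0.14 (SE 0.104, adjusted p 0.979), but the other PSMC1 probe was at +0.06. PSMD10, an assembly chaperone also called gankyrin, had the smallest p on the higher side and the third largest spread of all members, with an SD over pigs of 0.505 after removing line means. It ran from −0.91 to 0.75 in low-RFI pigs (median −0.29) and from −1.21 to 0.33 in high-RFI pigs (median −0.27), a 3.88-fold range from high-RFI pig 6 to low-RFI pig 2. The lines differed by +0.11 (SE 0.236, adjusted p 0.998).

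PSMD1, a large scaffold of the cap base, lay between 4.05 and 5.19 in low-RFI pigs (median 4.59) and between 4.36 and 5.12 in high-RFI pigs (median 4.91). Low-RFI pigs held both its lowest (pig 7) and its highest (pig 3) level, and the difference was −0.21 (SE 0.171), with its 6 probes from −0.21 to +0.30. The ATPase PSMC6 lay between 3.57 and 3.72 in low-RFI pigs (median 3.66) and between 3.31 and 3.82 in high-RFI pigs (median 3.65), and differed by +0.01 (SE 0.0828). PSMD14, which cuts ubiquitin chains off the substrate, differed by −0.04 (SE 0.215), and PSMD4, a ubiquitin receptor, by +0.02 (SE 0.117). The signs of PSMA1, PSMB4, PSMC6 and PSMD4 changed with the scaling of the arrays. PSME3, subunit of a nuclear activator, lay between −0.19 and 1.28 in low-RFI and between 0.11 and 1.06 in high-RFI pigs, with low-RFI pigs 7 and 2 at the ends and a difference of +0.01 (SE 0.185). In no gene did 2 tested probes differ in sign with an unadjusted p under 0.05 in both. Only 1 member probe and 0 of the 22 tested further probes reached that p, so no gene could have.

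Of the immunoproteasome genes 3 were higher and 2 lower in low-RFI liver, with a median difference of +0.12. Within slides 1 to 4 that median was +0.02, −0.27, +0.32 and −0.34, so its sign changed from slide to slide. The medians of the core within the slides were +0.13, −0.12, +0.05 and −0.04, and those of the cap +0.13, −0.21, +0.06 and −0.14. With slide as a block the 3 medians were as without it, which 2 pigs of each line on each slide fixes in advance.

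**Figure D2:**
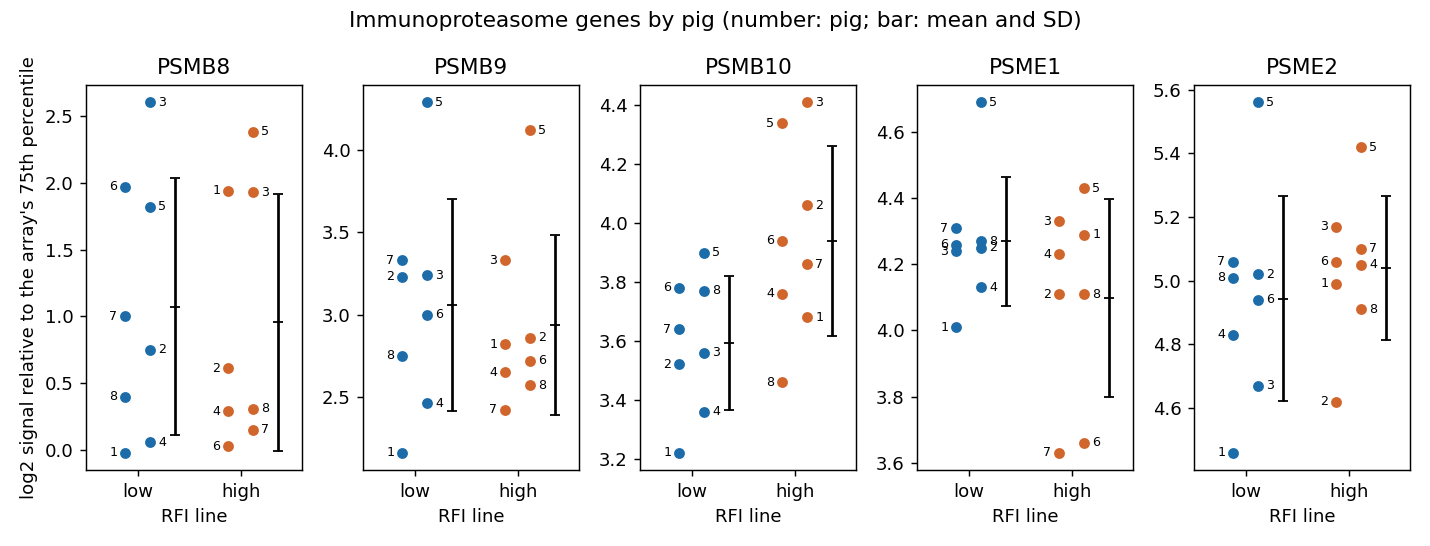
Levels of the 5 immunoproteasome genes in each pig, as log2 above the array's 75th percentile, by line, with the number of the pig beside its point and bars for mean and SD of 8 pigs. The lines overlap in each gene, PSMB8 has no pig between 1.0 and 1.82, and low-RFI pig 5 and high-RFI pig 5 are highest in PSMB9 and PSME2.

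PSMB10, which replaces PSMB7, was the member with the smallest p. It lay between 3.22 and 3.9 in low-RFI pigs (median 3.60) and between 3.46 and 4.41 in high-RFI pigs (median 3.9). Every low-RFI pig (8 of 8) was under the high-RFI mean, but the ranges overlapped, with high-RFI pig 8 at 3.46. The difference was −0.34 (SE 0.141, a 1.27-fold lower level), with an unadjusted p of 0.0257 and an adjusted p of 0.845 in limma, 0.536 to 0.9997 over the alternatives, so it did not pass.

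The other 2 PSMB10 probes were at −0.24 and −0.29. Within slides 1 to 4 the difference was −0.23, −0.64, −0.14 and −0.37, and with slide as a fixed block it was −0.34 (SE 0.151, adjusted p 0.888). The lines are balanced over slides, so this block could change only the SE and p. The unadjusted p was under 0.05 in 0 member probes without low-RFI pig 1, low-RFI pig 4, high-RFI pig 3 or high-RFI pig 5, and in 2 without high-RFI pig 4 or high-RFI pig 8. The constitutive counterpart PSMB7 was at +0.20, and a test of the difference between the 2 genes' changes was not run.

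PSMB8, which replaces PSMB5, had the largest spread of all members, with an SD over pigs of 0.961 and a 6.14-fold range. It ran from −0.02 to 2.60 in low-RFI pigs (median 0.88) and from 0.03 to 2.38 in high-RFI pigs (median 0.46). The 16 levels fell into separate clusters, with 10 pigs at 1.0 or below and 6 at 1.82 or above. The gap of 0.82 was 31.4% of the range, and the next largest was 0.42. The upper cluster held 3 low-RFI pigs (3, 5 and 6) and 3 high-RFI pigs (1, 3 and 5).

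The difference between lines in PSMB8 was smaller than this spread (+0.12, SE 0.436, adjusted p 0.998). Within slides the difference was −0.11, −0.59, +2.07 and −0.89. The 3 PSMB8 probes had r of 0.995 to 0.999 with each other, and the first of those printed shares no run of 15 bases with the other 2.

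PSMB9, which replaces PSMB6, had the second largest spread (SD 0.599). It lay between 2.16 and 4.29 in low-RFI pigs (median 3.11) and between 2.42 and 4.12 in high-RFI pigs (median 2.77). Low-RFI pig 5 and high-RFI pig 5 stood above all other pigs, the next being at 3.33. The difference was +0.12 (SE 0.277, adjusted p 0.998).

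PSME1 and PSME2 form the interferon-induced activator ring. PSME1 lay between 4.01 and 4.69 in low-RFI pigs (median 4.26) and between 3.63 and 4.43 in high-RFI pigs (median 4.17), where pigs 6 and 7 were low. In 7 of 8 low-RFI pigs it lay above the high-RFI mean, and the difference was +0.17 (SE 0.131, adjusted p 0.979). PSME2 lay between 4.46 and 5.56 in low-RFI pigs (median 4.98) and between 4.62 and 5.42 in high-RFI pigs (median 5.05), with the number 5 pigs again highest and a difference of −0.10 (SE 0.141, adjusted p 0.987). The other PSME2 probe was at +0.13, so the sign of PSME2 rested on the probe. The brighter one, used here, is described as an uncharacterised human protein PSME2 and had r of 0.79 with the other.

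Beyond the line difference, the subunits varied together from pig to pig. With line means removed, the median r was 0.65 over the 15 pairs of cap genes, all of them above 0, and 0.56 over the 48 pairs of a core and a cap gene. It was 0.25 over the 28 pairs of core genes, or 0.37 over the 21 pairs without PSMA1, beside 0.00 over the 7958055 pairs of named genes. Pairs above 0.5 made up 86.7% in the cap, 56.2% between core and cap and 32.1% in the core (42.9% without PSMA1), against 8.51% of all named pairs. These values are a description over 16 arrays that share their slides and scaling.

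**Figure D3:**
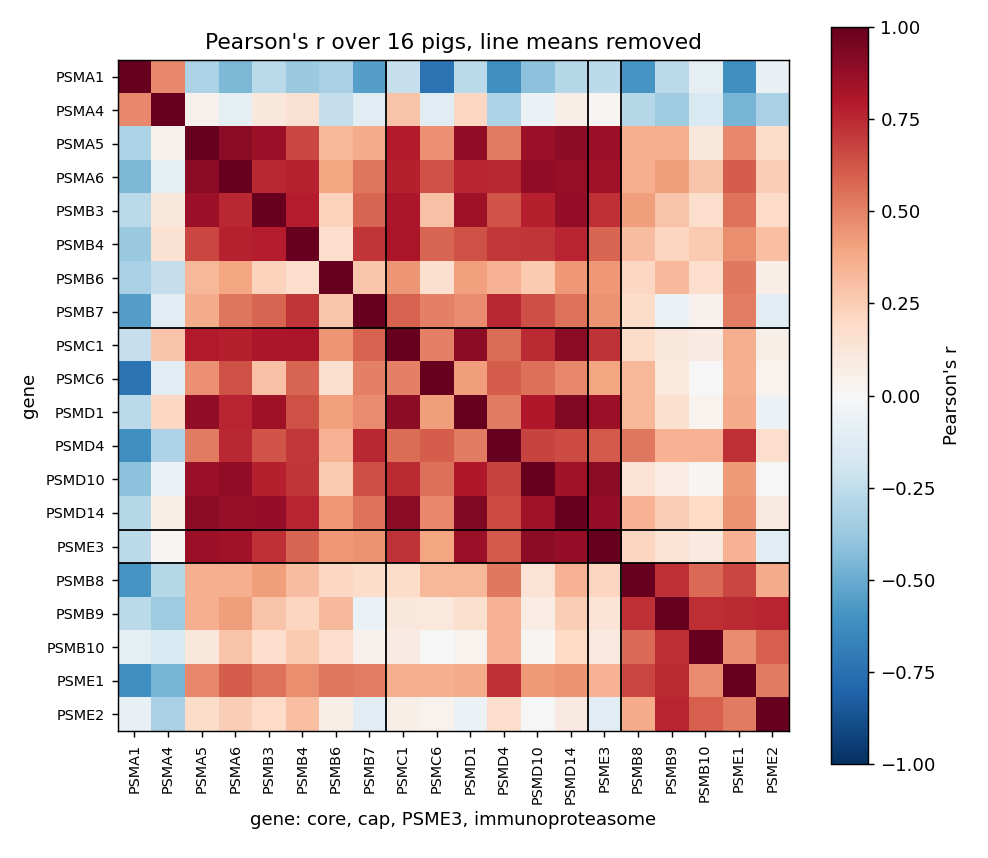
Pearson's r between the 20 genes over 16 pigs with line means removed, on a scale from −1 to 1, with lines between core, cap, PSME3 and immunoproteasome. Most core and cap genes form a block of high r, and the 5 immunoproteasome genes form a block of their own. PSMA1, PSMA4 and PSMB6, at the probes used here, stand outside the core and cap block.

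The strength of this covariation depended on how arrays were scaled. In the core the median r was 0.54 with median scaling, 0.11 with cyclic loess and 0.05 with quantile normalisation. In the cap it was 0.79, 0.56 and 0.45, and between core and cap 0.75, 0.43 and 0.29, while all named pairs had 0.07, 0.01 and 0.01. Within the immunoproteasome it was 0.63 to 0.64 under these 3 scalings.

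Within the core the genes were uneven. Each was set against the mean of the other core genes, after scaling these to the same spread. PSMB3 had r of 0.83, PSMB4 0.77, PSMA5 0.76, PSMA6 0.75 and PSMB7 0.45. PSMB6 was at 0.20, PSMA4 at 0.08 and PSMA1 at −0.37. A lower r was found in 99.1% of 3962 named non-members for PSMB3, 81.7% for PSMB7, 64.6% for PSMB6 and 51.9% for PSMA4. The PSMA1 probe was dim, at −4.67, and its description names an uncharacterised human protein PSMA1, whereas the PSMA1 probe named otherwise, at 3.32, had r of 0.90. The 3 PSMA4 probes disagreed with each other, with r from 0.14 to 0.83 between them and 0.31, 0.08 and −0.28 against the core. Against the core, the other PSMB6 probes had r of 0.48 and 0.28 and the other PSMB7 probe 0.61, so these values too depended on the probe.

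Of the 6 cap genes, 4 had r above 0.8 with the core mean. PSMC1 had r of 0.94 with it, PSMD14 0.91, PSMD1 0.87, PSMD10 0.81, PSMD4 0.61 and PSMC6 0.39. Over the PSMC6 probes r with the core mean ran from 0.38 to 0.63. Of 3962 named non-members, 98.5% had a lower r with the core mean than PSMD10, 89.5% than PSMD4 and 76.6% than PSMC6. PSME3, counted in neither class, was at 0.80 with the core and 0.85 with the cap. Of the genes named only otherwise, PSMD5 had r of 0.80 with the core, PSMA3 0.75, PSMD3 0.67 and PSMB5 0.66, with 92.0% of the non-members below PSMB5. PSMG4, an assembly chaperone, was at 0.15, PSMC5 at −0.07, the thymus-type subunit PSMB11 at −0.49 and PSMA7 at −0.64. The 5 PSMC5 probes ranged from −0.44 to 0.66, and the PSMA7 and PSMB11 probes were dim, at −2.49 and −2.03. With these genes added, a choice made after seeing the data, the median r was 0.19 in the core and 0.55 in the cap.

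Probes of the same gene mostly agreed. Over 106 pairs of member probes in 15 genes the median r was 0.83, and 102 pairs were above 0.5. In 22 of the 106 pairs the probes shared a run of at least 15 bases.

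Core and cap were highest in low-RFI pig 2, at +0.28 and +0.38 as the mean of their genes relative to all pigs. The core was lowest in high-RFI pig 7 (−0.22), and the cap in low-RFI pig 7 and high-RFI pig 6 (both −0.47). Pigs of both lines thus lay at the low end.

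Heat shock genes moved with these means. Over the 16 pigs, with line means removed, the mean of 10 heat shock genes had r of 0.87 with the core (rho 0.91) and 0.82 with the cap (rho 0.89). Without low-RFI pig 2 and high-RFI pig 4, the pigs farthest out in heat shock genes, r was 0.80 and 0.82. It was 0.84 to 0.89 with the core and 0.78 to 0.85 with the cap under normexp, median, quantile and cyclic loess settings. Within the 2 series of sample numbers that the submitters' file names fall into, r with the core was 0.94 and 0.82. With the immunoproteasome mean it was 0.04. These r used plain class means. With each class gene first scaled to the same spread, r was 0.84 with the core and 0.76 with the cap.

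Both means also moved with array measures and hepatocyte markers. With the 75th percentile of signal r was 0.63 for the cap and 0.51 for the core, and 0.27 and 0.28 without high-RFI pig 6 and low-RFI pig 7. With the median background it was −0.57 for the cap and −0.43 for the core. With hepatocyte markers r was −0.71 for the cap (rho −0.63; −0.71 to −0.13 under other scalings) and −0.63 for the core (rho −0.66). Their part in the covariation, and in the relation with heat shock genes, was not tested.

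**Figure D4:**
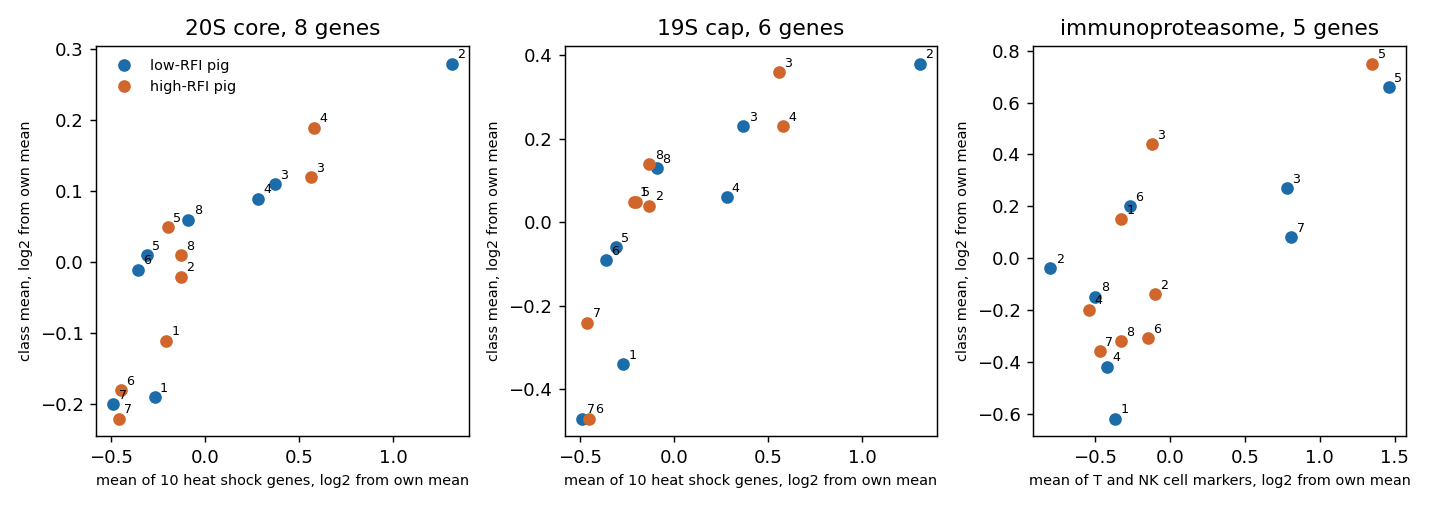
Class means in each pig as log2 from each gene's own mean: core and cap against the mean of 10 heat shock genes, and immunoproteasome against the mean of 6 T and NK cell markers, with the number of the pig beside its point. Low-RFI pig 2 is highest for heat shock genes, core and cap, and low-RFI pig 5 and high-RFI pig 5 are highest for T and NK cell markers and the immunoproteasome.

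Named non-members closest to the core mean were RPL7L1 (r 0.93), C15H4orf47 (0.91), DRG1 (0.91), MRPL18 (0.90), PRMT5 (0.89), KPNA2 (0.89), MESDC2 (0.89) and VCP (0.89), over 3962 genes and 16 pigs. VCP is the ATPase that extracts ubiquitin-marked proteins and hands them to the proteasome. Closest to the cap mean was UBE2D2, a ubiquitin-conjugating enzyme, with r of 0.98. ATP6V1E1 (0.97), BLOC1S2 (0.96) and NCBP2 (0.94), none of them on the pathway list below, came next. Of 37 other proteasome and ubiquitin pathway genes listed, the 15 found under the listed symbol and tested did not pass between the lines. Of these, 10 were higher and 5 lower, with 0 called, 0 at an unadjusted p under 0.05 and a median of +0.08. The smallest p was that of UBB, a ubiquitin gene, on the higher side (+0.24, SE 0.131, adjusted p 0.962 in limma), and of the peptide transporter gene TAP2 on the lower side (−0.11, SE 0.134, adjusted p 0.983). UBE2D2, VCP and TAP2 are themselves among the listed genes. The listed UBA1 was measured under its older symbol UBE1X and is not among the 15. The mean of the 15 genes had r of 0.81 with the core and 0.82 with the cap. Taken singly, they ran from −0.37 (UBE2D1) to 0.89 (VCP) with the core.

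The immunoproteasome genes also varied together. Their 10 pairs had a median r of 0.63, all above 0, and the 6 pairs without PSMB8 one of 0.67. With core genes the median r was 0.20. With cap genes it was 0.18, but 0.37 under normexp and 0.70 in the first series of sample numbers. PSME1 alone had r of 0.53 with the cap mean, where 82% of 3962 named non-members had a lower r. High-RFI pig 5 (+0.75) and low-RFI pig 5 (+0.66) had the highest mean of the 5 genes and low-RFI pig 1 (−0.62) the lowest. Both number 5 pigs were on slide 2 and in the second series of sample numbers. Slide 2 also held low-RFI pig 1.

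PSMB9 was the gene closest to the others of its class, with r of 0.93 against their mean, then PSME1 (0.71), PSMB10 (0.70), PSMB8 (0.68) and PSME2 (0.65). A lower r was found in 96.6% of the named non-members for PSME2, and in a larger share for the rest. Fixed pairs of single genes were tested over pigs, two-sided, with 100000 permutations and Benjamini-Hochberg adjustment over 20 pairs. Because PSMB8 fell into separate clusters, its 8 pairs were taken out of the pooled family after its levels were seen. The pairs with NFE2L1, 4 in number, were left out because no tested probe carried that name.

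These r are over the levels as measured, with line means kept. By r, 3 of 20 pairs passed. The count was 8 with line means removed, when PSMB9 and PSMB10 also passed (r 0.74, adjusted permutation p 0.0063), and 6 under normexp, quantile or cyclic loess. It was 1 without low-RFI pig 5, 5 without high-RFI pig 6, and 0 and 1 within the 2 series of sample numbers. PSMB9 and TAP1, a peptide transporter subunit that interferon also induces, had r of 0.87 (permutation p 6e-05, adjusted 0.0012) and rho of 0.85 (p 4e-05, adjusted 5e-04). Without the 2 pigs farthest out in PSMB9, r was 0.68, and within the series of sample numbers it was 0.76 and 0.92. In low-RFI pigs alone r was 0.85 and in high-RFI pigs alone 0.89.

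PSMB9 and PSME1 had r of 0.73 (permutation p 0.0024, adjusted 0.016) and rho of 0.85 (p 5e-05, adjusted 5e-04), with 0.57 without the 2 farthest pigs and 0.80 and 0.81 within the series of sample numbers. Without low-RFI pig 5 this pair did not pass (r 0.62, adjusted permutation p 0.0806). PSMB9 and PSME2 had r of 0.73 (permutation p 0.0017, adjusted 0.016), but rho was 0.52 (p 0.041, adjusted 0.12) and r without the 2 farthest pigs 0.36, so this relation rested on those pigs. It also missed the threshold without low-RFI pig 1, low-RFI pig 5 or high-RFI pig 5 (adjusted permutation p 0.0504, 0.0806 and 0.0562). Within the series of sample numbers r was 0.53 and 0.89.

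**Figure D5:**
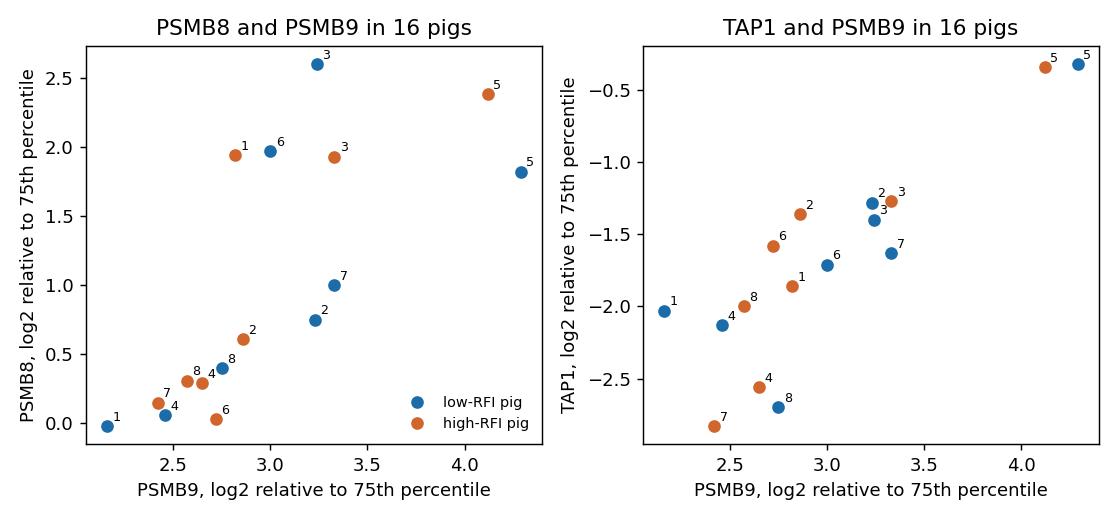
Levels of PSMB8 and of TAP1 against PSMB9 in the 16 pigs, as log2 signal relative to the 75th percentile, with the number of the pig beside its point. TAP1 is higher where PSMB9 is higher (r 0.87), while the 6 pigs high in PSMB8 span PSMB9 levels from 2.82 to 4.29.

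PSMB10 and PSME2 had r of 0.59 and PSME1 and TAP1 one of 0.59 (adjusted permutation p 0.058 each). With IRF1, an interferon-induced factor, r lay between −0.25 and 0.06 for the 4 genes (adjusted permutation p 0.51 to 0.86). Between replaced and replacing subunits, PSMB9 and PSMB6 had r of 0.30 (adjusted permutation p 0.39) and PSMB10 and PSMB7 one of −0.20 (adjusted permutation p 0.59).

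Within the 10 pigs of the lower PSMB8 cluster, PSMB8 and PSMB9 had r of 0.91, and within the 6 pigs of the upper cluster 0.03. The clusters are cut on PSMB8 itself, which narrows its range (1.82 to 2.60 in the upper one), so these values are a description and were not compared with each other. For PSMB8 and TAP1 r was 0.46 and 0.08, for PSMB8 and PSME1 0.63 and −0.41, and for PSMB8 and PSMB5 0.13 and −0.44. In the gene table of Sscrofa11.1, PSMB8, TAP1 and PSMB9 are neighbours on chromosome 7, with TAP2 beside PSMB8. With line means removed, r with PSMB9 was 0.87 for TAP1 but 0.22 for TAP2, and a part of position was not tested. PSME1 and PSME2 lie on the same chromosome with EMC9 between them, and PSMB10 lies on chromosome 6. No build is stated for the array, so no positions are printed.

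T and NK cell markers moved with the immunoproteasome. The mean of 6 T and NK cell markers had r of 0.75 with the mean of the 5 genes (rho 0.66) and 0.44 without high-RFI pig 5 and low-RFI pig 5. Under other scalings of the arrays it was 0.50 to 0.80. PSMB8, with the largest spread, weighs most in this plain mean, which pools its clusters. With the 5 genes first scaled to the same spread, r was 0.73. Taken singly, the 6 markers had r with PSMB9 from 0.50 (GZMB) to 0.83 (CD2). The 1 tested B cell marker, CD79A, had r of 0.06 with the scaled mean, at a dim level (mean −4.74 in low-RFI and −4.70 in high-RFI pigs). For 20 interferon genes r with the plain mean was 0.57 (0.13 without the same pigs) and for 4 Kupffer cell and macrophage markers 0.61. For the last, low-RFI pigs alone gave 0.35 and high-RFI pigs alone 0.90, and it was 0.23 and 0.90 in the series of sample numbers, differences that were not tested. In bulk liver, more cells of a type and more RNA per cell cannot be told apart, and the part of these cells in the result was not tested.

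Named non-members close to the immunoproteasome mean included JPT1 (r 0.90), IL10 (0.88), UBE1X (0.85), IFI30 (0.85), CASP1 (0.85), ITGAL (0.84) and SLA-DMB (0.84). UBE1X is an older symbol of the listed pathway gene UBA1. ITGAL is a leukocyte integrin and IL10 a cytokine. IFI30 and SLA-DMB serve antigen presentation on MHC class II, and CASP1 is the inflammasome protease.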

How the data were processed

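Per the file headers, the deposited processed signal is an intensity from Agilent Feature Extraction (version 10.7.3.1, protocol GE1_107_Sep09), with spatial and multiplicative detrending switched on. The value matrix the authors deposited holds log2 values, equal to the log2 processed signal minus each array's median over 27938 listed spots. The submitters' processing notes name R 2.10.0. Per the series' design text, each of the 16 arrays holds 1 pig.

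Levels were log2 processed signal minus each array's 75th percentile over non-control spots, with outlier spots set to missing and spots of a probe averaged. Of 43603 probes, 30097 were tested, being well above background on at least 8 of 16 arrays. A gene was represented by its brightest tested probe, taken among member probes for the genes found by the rule. For PSMA1 this left out the brighter probe named otherwise. Class means used genes scaled to the same spread for r with single genes, and plain values for r with gene lists or array measures. The line difference was fitted with limma 3.58.1 in R 4.3.3 on all tested probes, with Benjamini-Hochberg adjustment and a threshold of 0.05. Single-gene relations used 100000 permutations. Data handling used the data.table package (1.17.8) and jsonlite 2.0.0, and figures matplotlib 3.10.9 in Python 3.11.15. The number of arrays limits the precision.

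Named genes were the 5 immunoproteasome genes, the 3 members with the largest SD, PSMB5, PSMB6 and PSMB7. Also named was the gene with the smallest p in each direction among core alpha, core beta, cap ATPase, cap non-ATPase and other subunits. The 8 non-members closest to the core and immunoproteasome means were named too. UBE2D2 and the genes that follow it by r with the cap mean were added after values were seen. Some genes and pairs that these rules name are not reported here. Members, lists and rules were chosen with earlier results of these data known. Some choices were made after seeing values. The spots under the 75th percentile were fixed after 5 versions had been compared. Array noise was defined after several versions and their line means had been seen, and 2 were run as covariates. The PSMB8 pairs were removed after its gap was seen. The 2 series of sample numbers, used as a batch, come from the sample numbers in the submitters' file names. Probe names came from the files and from tables of RefSeq genes (Sscrofa11.1). The fit was tested on simulated data.

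Alternatives were normexp with an offset of 50, median, quantile and cyclic loess scaling, the authors' values, outliers kept, other filters, blocks and covariates, trend with robust variances, array weights, probe means, and leaving out each pig.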

Additional observations from a re-analysis of the deposited data

Results flagged for a closer look

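Of 42 groups of 8 pigs tested (21 genes in 2 lines), 2 held a pig far from the others of its line, where chance gives about 1 in 20 groups. PSMC6 in high-RFI pig 6 was at 3.31, with the next pig of that line at 3.60, a gap of 57.3% of the group's range. PSME1 in low-RFI pig 5 was at 4.69, with the next pig at 4.31, a gap of 56.3% of the range. At the other PSME1 probe this pig was also highest of its line, at 3.66, but the next was at 3.52 and the lowest at 3.08. High-RFI pig 6 also had the most probes above background of all arrays (34977), and low-RFI pig 5 had the highest PSMB9 level (4.29).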

How the results depend on the processing

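No member probe was called under any of 21 other settings or without any 1 pig, and at an unadjusted p under 0.05 there were 2 under normexp and 0 to 2 without 1 pig. The labels do not say that replicate numbers pair the pigs. Deviations of same-numbered pigs had r of 0.047 to 0.396, above 0.1 in 6 of 8 and not in all. For 5 of 8 pigs the best match was their own number. Same-numbered pigs also share their series of sample numbers, and those numbered 5 and 8 share a slide. Pairing of the animals cannot be told apart from these. With the replicate block, 0 probes were called, 1 had an unadjusted p under 0.05, PSMB10 was at −0.34 (SE 0.122, adjusted p 0.536 in limma) and the class medians were as without it. Each number holds 1 pig of each line, so this block too could change only the SE and p. The immunoproteasome median was −0.34 on slide 4 alone. Median r in the core was 0.54 with median scaling, 0.054 with quantile, 0.11 with cyclic loess, 0.44 with probe means, 0.46 with slide means removed and 0.47 in the second number series. Between core and cap it was 0.75 with median scaling, 0.29 with quantile and 0.73 in the second number series, in the cap 0.45 with quantile, and between immunoproteasome and cap 0.37 with normexp and 0.70 in the first number series. Pairs that passed numbered 6 with normexp, quantile or cyclic loess, 5 with probe means, 8 with line means removed, 0 and 1 in the number series and 1 to 5 without 1 pig, lowest without low-RFI pig 5 and highest without high-RFI pig 6.

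Some line differences, none of them called, changed sign. Values were 0.24 for PSMA1 and −0.050 for PSMC6 under normexp, 0.012 for PSMA1 and 0.022 for PSMB4 with median scaling, 0.066 for PSMA1, −0.026 for PSMC6 and −0.0098 for PSMD4 with quantile, and 0.064, −0.016 and −0.0027 for the same genes with cyclic loess. With array position as a block they were 0.059 for PSMA1, −0.16 for PSMB8, −0.047 for PSMB9 and −0.017 for PSMC6, and with array noise PSME3 was at −0.015. Array noise was lower in low-RFI arrays over 26 replicated probes (7.63% against 7.87%) and higher over all 50 (13.31% against 12.48%). With noise over all 50, PSMA1 was at 0.042, PSMB8 and PSMD10 at −0.026, PSMC6 at −0.017, PSMD4 at −0.081 and PSME3 at −0.095. With array weights PSMA1 was at 0.11, PSMB3 at −0.0024, PSMB8 at −0.037, PSMC6 at −0.020, PSMD10 at −0.062, PSMD4 at −0.047 and PSME3 at −0.10. With probe means PSMB4 and PSMB6 were at 0.025, PSMC6 at −0.0070, PSMD4 at −0.0026 and PSME2 at 0.018. Without 1 pig the ranges were −0.11 to 0.12 for PSMA1, −0.021 to 0.12 for PSMB3, −0.052 to 0.021 for PSMB4, −0.099 to 0.32 for PSMB8, −0.057 to 0.29 for PSMB9, −0.039 to 0.033 for PSMC6, −0.034 to 0.21 for PSMD10, −0.14 to 0.096 for PSMD14, −0.055 to 0.072 for PSMD4 and −0.092 to 0.12 for PSME3.

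Among pairs that had not passed, r of PSMB10 and PSMB7 was 0.11 with normexp, 0.019 with median scaling, 0.016 with probe means, 0.044 with line means removed and 0.13 in the first number series. For PSMB10 and IRF1 it was 0.044 with normexp, 0.035 with median scaling, 0.0021 with line means removed and 0.17 in the second series. For PSME1 and IRF1 it was −0.0021 with quantile, −0.22 with slide means removed and −0.44 in the first series, for PSMB9 and IRF1 −0.23 and −0.068 in the last 2 settings, for PSME2 and IRF1 0.44 in the second series, and for PSMB9 and PSMB6 −0.59 in the first. Without 1 pig, r ran from −0.21 to 0.34 for PSMB10 and IRF1, −0.036 to 0.42 for PSMB9 and IRF1, −0.083 to 0.21 for PSME1 and IRF1, −0.35 to 0.13 for PSME2 and IRF1, and −0.076 to 0.41 for PSMB9 and PSMB6. In all, 62 of the gene values and 23 of the pair values changed sign. The causes were not tested. With 8 pigs a line and a median SE of 0.14, small differences could not be resolved. The limma p-values set a line difference against the spread within lines. With 1 array per pig, variation between pigs and between arrays cannot be told apart in that spread.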
